A study of Homo sapiens with 12 samples.

Results

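Translation factors whose mRNAs carry a terminal oligopyrimidine (TOP) tract were chosen by name: EEF1A1, EEF1B2, EEF1D, EEF1G and EEF2 of elongation, EIF3E, EIF3F, EIF3H and EIF4B of initiation, and the poly(A)-binding protein gene PABPC1. Of these 10 genes, 9 had a row among the 16299 genes of the table, all 9 passed the filter on low values (15794 genes tested), and EEF1G was not analysed here. The groups were PANC1 on 7.5% gelatin methacryloyl (GelMA), on 5% GelMA and on collagen, and BXPC3 on 7.5% GelMA, on 5% GelMA and on collagen, with 2 libraries in each of the 6 groups. Both are established human pancreatic cancer lines, grown in high-glucose medium with serum. PANC1 is poorly differentiated with mesenchymal traits, and BXPC3 is epithelial and lacks SMAD4. GelMA is gelatin carrying methacryloyl groups through which it can be cross-linked. The labels name no allele or drug in any group, and each line stands for 1 tumour. Poly-A RNA was sequenced and the values were log2 RPKM, the log2 of read density per gene length and library size.

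During initiation, eIF3 holds the small ribosomal subunit ready for mRNA, eIF4B assists the helicase that unwinds the 5′ end, and PABPC1 on the poly(A) tail contacts the cap-binding complex. During elongation, eEF1A brings aminoacyl-tRNA to the ribosome, the eEF1B subunits recharge eEF1A with GTP, and eEF2 moves the ribosome along the mRNA. A TOP mRNA begins with a C at the cap followed by an unbroken run of pyrimidines. The kinase complex mTORC1 controls how well such mRNAs are translated, the cap-binding protein LARP1 represses and stabilises them, and most encode ribosomal proteins or translation factors, so that the protein synthesis machinery is made in step with nutrients.

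The sequences around the RefSeq transcription starts (GRCh38.p14) are printed because the run of pyrimidines at the start defines the class. The promoter table held 7 starts for 6 of the 10 genes. Each line below runs 5′ to 3′ on the gene's strand and holds 35 bases before the start and 15 bases from it. Capitals mark the unbroken run of C and T that begins with a C at the annotated start. The lines cover chr2:206159860-206159909 (plus strand) for the downstream start of EEF1B2 and chr2:206159574-206159623 (plus) for its upstream start. They cover chr6:73521018-73521067 (minus) for EEF1A1, chr19:3985449-3985498 (minus) for EEF2, chr11:7987302-7987351 (plus) for EIF3F and chr12:53006421-53006470 (plus) for EIF4B.
EEF1B2 downstream start: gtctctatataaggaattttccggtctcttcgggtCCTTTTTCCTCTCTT
EEF1B2 upstream start: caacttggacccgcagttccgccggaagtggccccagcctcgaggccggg
EIF3F: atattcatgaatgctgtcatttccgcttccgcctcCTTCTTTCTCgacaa
EEF1A1: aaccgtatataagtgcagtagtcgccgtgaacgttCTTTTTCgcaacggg
EEF2: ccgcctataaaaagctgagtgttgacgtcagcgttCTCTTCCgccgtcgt
EIF4B: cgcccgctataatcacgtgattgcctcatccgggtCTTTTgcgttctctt

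The run was 16 bases long at the downstream start of EEF1B2, where it extended past the printed window, 10 bases in EIF3F, 7 in EEF1A1 and EEF2, and 5 in EIF4B. The upstream start of EEF1B2 and the listed start of EEF1G did not begin with a C. A run of at least 5 bases was present at 5 of 7 member starts (71.4%) and at 4.07% of the 35116 starts in the table. It was present at 47 of 78 starts (60.3%) of 63 cytosolic ribosomal protein genes. The members were chosen as TOP mRNAs, so a high share among them follows from the choice. The letters TATAA, sought from 40 to 16 bases before the start, occurred on the gene's strand at 4 of the 7 member starts, in EEF1B2 (downstream start), EEF1A1, EEF2 and EIF4B, and on the other strand at 0 of 7. Over all starts the shares were 3.91% on the gene's strand and 1.73% on the other. The TATAA search region does not overlap the pyrimidine run. These matches describe letters at annotated starts, and the starts used in these cells were not measured here.

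The line labels were checked first. SMAD4 lay at 3.94 to 4.55 log2 RPKM in the 6 PANC1 libraries and at -5.92 to -5.35 in the 6 BXPC3 libraries. The epithelial genes KRT8, KRT18 and KRT19 were expressed in both lines (9.72 to 11.69 log2 RPKM in PANC1 and 9.64 to 11.83 in BXPC3). The mesenchymal gene VIM was at 11.65 to 11.93 in PANC1 and 5.01 to 5.78 in BXPC3, and CDH1, the epithelial cadherin, at 4.20 to 4.86 in PANC1 and 8.22 to 8.40 in BXPC3. Replicates correlated with r of 0.9922 to 0.995 across the tested genes, and no library was left out. Of the markers of other cell types, 2 of 6 fibroblast, 2 of 5 immune and 3 of 4 endothelial genes were in the table. In PANC1, CD14 was at 2.44 to 3.08 log2 RPKM, CD3E at -5.58 to -4.76, PECAM1 at -4.94 to -3.35, VWF at -4.68 to -3.08 and KDR at -3.59 to 0.35. In BXPC3, CD14 was at 3.78 to 4.41, CD3E at 0.13 to 1.12, PECAM1 at -0.29 to 0.46, VWF at 0.78 to 1.44 and KDR at -5.49 to -5.21. The fibroblast and endothelial sums moved with the matrix in PANC1. The fibroblast sum was 363 to 426 RPKM in 7.5% GelMA, 222 to 227 in 5% GelMA and 141 to 147 in collagen, made of COL1A1 and COL3A1, against 15.3 to 16.1 over all BXPC3 libraries. COL1A1 rose by 1.66 log2 in PANC1 in GelMA while COL3A1 fell by 2.62. The summed immune markers were 5.45 to 8.45 RPKM in PANC1 and 14.9 to 22.4 in BXPC3. The endothelial sum was 1.11 to 1.42 RPKM in PANC1 in 7.5% GelMA, 0.387 to 0.703 in 5% GelMA and 0.228 to 0.339 in collagen, against 2.56 to 4.12 over all BXPC3 libraries. PECAM1 was called higher in PANC1 in GelMA, by 0.83 ± 0.25 log2 (adjusted p = 0.0164), but between values under 1 RPKM. It passed the filter on low values through its BXPC3 libraries alone. KDR, which reached 0.35 log2 RPKM in PANC1, did not pass the filter and was not tested. The part of these transcripts in the results was not tested.

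In PANC1, 8 of the 9 translation factor mRNAs fell in GelMA (the mean of 7.5% and 5%) relative to collagen, with changes of -0.35 to -0.16 log2 (-21.4% to -10.6%). EEF1B2 was the exception, at -0.05. Over all tested genes, 27.4% were called lower and 55.1% were called in either direction, so a call in itself was common in this comparison. The median change of the 9 members was -0.32 log2, against -0.01 for all genes tested. Calls were made in limma at a false discovery rate of 0.05 (Benjamini-Hochberg, all 15794 genes), and ± on a fold change is its standard error (SE). In 8 of 9 members all 4 GelMA libraries lay below both collagen libraries, which also held for 31.7% of all genes. In bulk RNA a smaller number of cells and less RNA per cell cannot be told apart, and the values are relative to the other genes of each library. The labels do not say whether the replicates are separate cultures, so the p-values cover the variation among these libraries alone, and that variation may be technical.

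Elongation began with EEF1A1 (ENSG00000156508, chr6:73515750-73523797, minus strand, GRCh38), which delivers aminoacyl-tRNA and was the highest member in each library. It was at 12.11 and 12.11 log2 RPKM in PANC1 in 7.5% GelMA, 12.11 and 12.11 in 5% GelMA, and 12.42 and 12.42 in collagen. It fell by 0.31 ± 0.04 log2 in GelMA (adjusted p = 0.00012), with no overlap between the matrices. The equal values reflect ranks: the table appears quantile normalized, with the values of its top 13758 ranks equal between libraries within 0.05 log2. EEF1A1 was 12th in all 4 GelMA libraries and 8th in both collagen libraries. The mitochondrial mRNAs MT-CYB, MT-ND1, MT-ND2 and MT-ATP6 (named after their values were seen) stood above it in all 4 GelMA libraries and below it in both collagen libraries, with changes of 0.32, 0.47, 0.19 and 0.23 log2 in that order. In BXPC3, EEF1A1 was at 12.05 and 11.99 in 7.5% GelMA, 11.99 and 11.99 in 5% GelMA, and 12.05 and 12.05 in collagen. The matrices overlapped there, and the change of -0.04 ± 0.04 was not called (adjusted p = 0.421, 95% interval -0.13 to 0.05).

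EEF1B2 (ENSG00000114942, chr2:206159585-206162928, plus strand) encodes an exchange subunit that returns eEF1A to its GTP form, and it was the member not called in PANC1. It was at 9.05 and 9.09 log2 RPKM in PANC1 in 7.5% GelMA, 8.97 and 8.98 in 5% GelMA, and 9.12 and 9.03 in collagen. These values overlapped, and the change of -0.05 ± 0.03 was not called (adjusted p = 0.203, 95% interval -0.12 to 0.02). In BXPC3 it was at 8.17 and 8.19 in 7.5% GelMA, 8.19 and 8.17 in 5% GelMA, and 7.90 and 7.83 in collagen. All 4 GelMA libraries stood above both collagen libraries there, which also held for 26.8% of all genes. EEF1B2 rose by 0.32 ± 0.03 log2 in BXPC3, or 24.4% (adjusted p = 9.77e-05). EEF1D (ENSG00000104529, chr8:143579697-143599541, minus strand) is the other exchange subunit measured. In PANC1 it was at 6.60 and 6.69 in 7.5% GelMA, 6.37 and 6.36 in 5% GelMA, and 6.92 and 6.79 in collagen. It fell by 0.35 ± 0.05 (adjusted p = 0.000134) and was lowest in 5% GelMA. In BXPC3 the 4 GelMA libraries (6.69, 6.76, 6.74 and 6.64) were all below collagen (6.77 and 6.79), as in 25.2% of all genes. The change of -0.07 ± 0.05 was not called (adjusted p = 0.244), except with the centrings given below.

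EEF2 (ENSG00000167658, chr19:3976056-3985469, minus strand), the translocation factor, was at 10.16 and 10.18 log2 RPKM in PANC1 in 7.5% GelMA, 10.18 and 10.12 in 5% GelMA, and 10.39 and 10.61 in collagen. It fell by 0.34 ± 0.06 (adjusted p = 0.000524), and its 2 PANC1 collagen libraries differed more than any other pair of member replicates, with an SD of 0.16. In BXPC3, EEF2 was at 10.13 and 10.22 in 7.5% GelMA, 10.18 and 10.18 in 5% GelMA, and 10.12 and 10.09 in collagen. Every GelMA library was above both collagen libraries there, as in 26.8% of all genes. The change of 0.07 ± 0.06 was not called (adjusted p = 0.329).

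**Figure D1:**
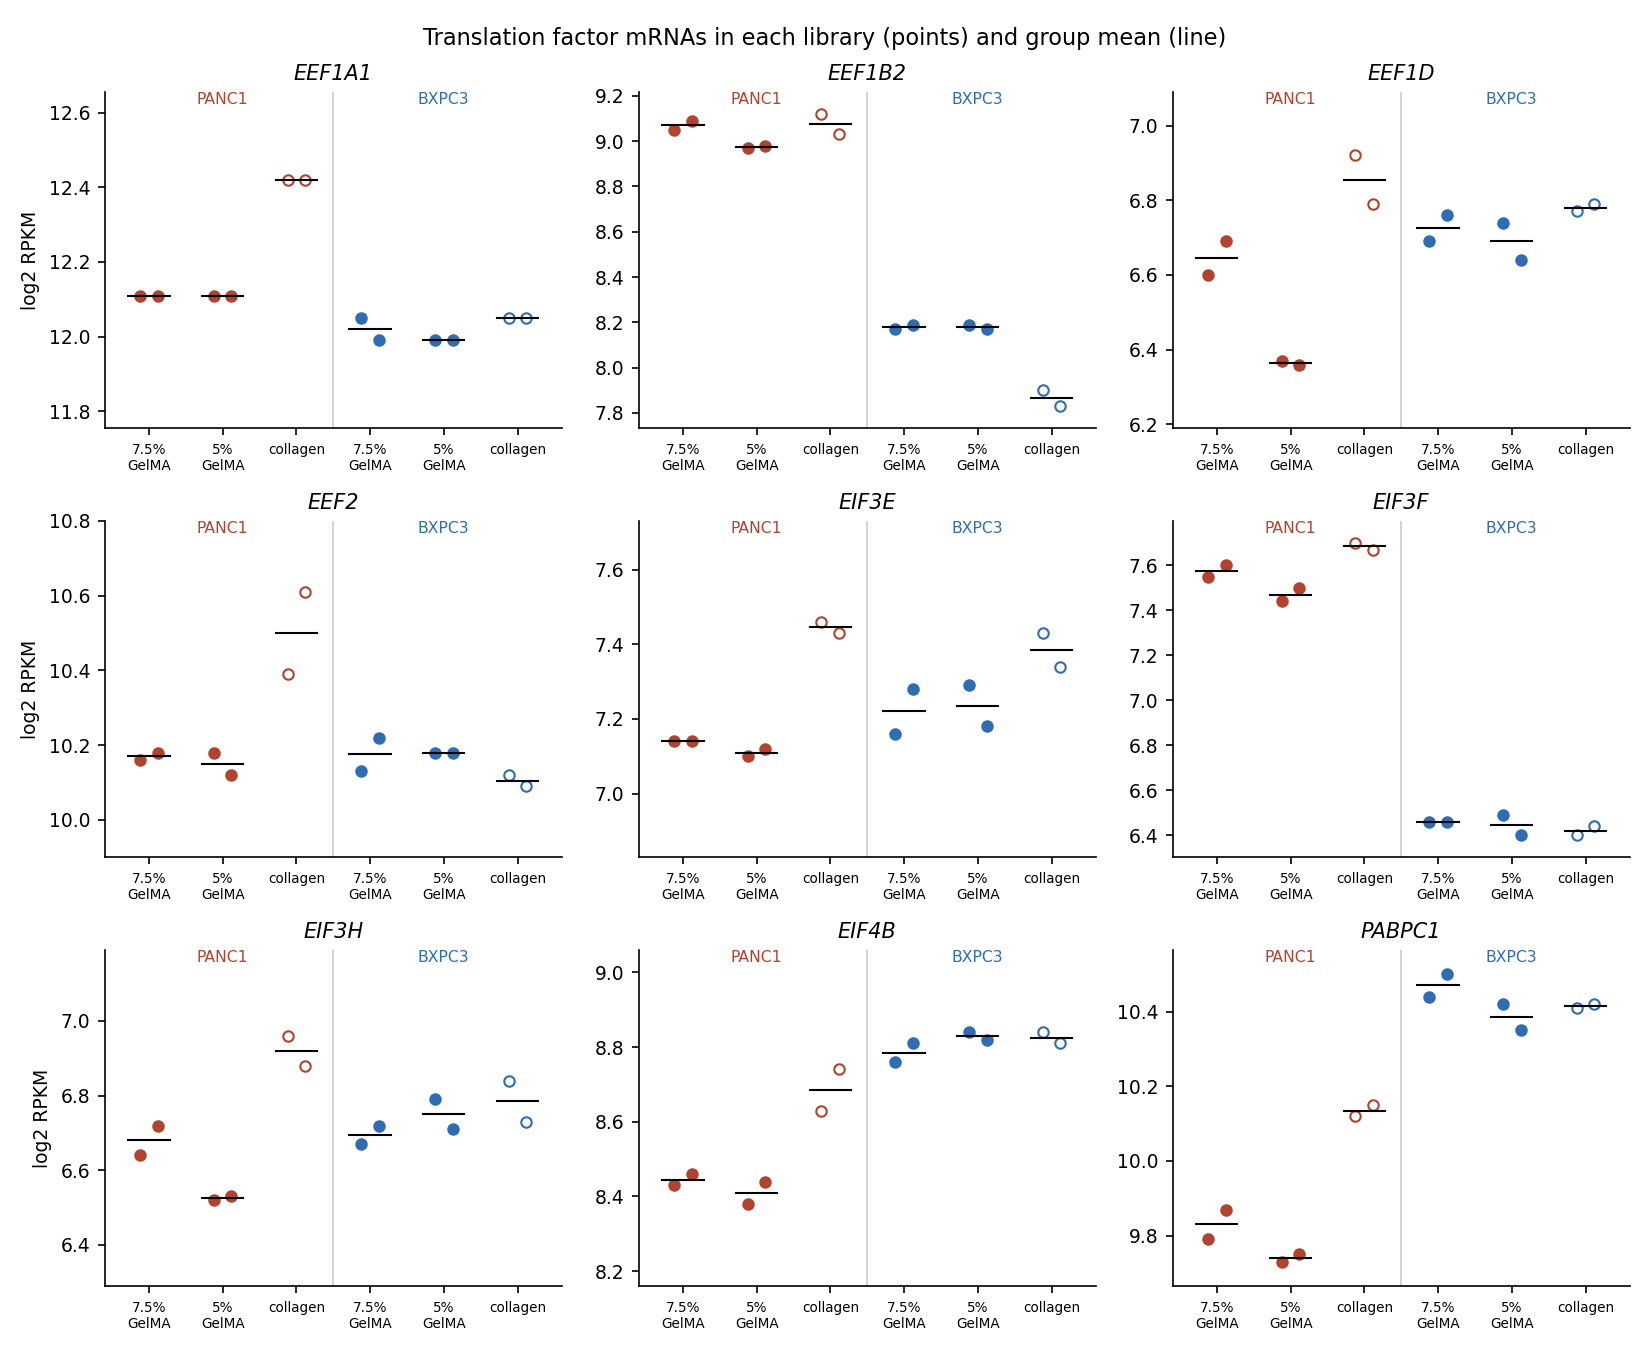
Log2 RPKM (vertical axis, each panel with its own range) of the 9 member genes in the 12 libraries, as points, with the group mean as a line; PANC1 is on the left and BXPC3 on the right of each panel. In PANC1 the open collagen points lie above the filled GelMA points for every gene except EEF1B2, and in BXPC3 EEF1B2 is higher in GelMA.

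Among the initiation factors, EIF3E (ENSG00000104408, chr8:108201216-108435333, minus strand), a PCI-domain subunit of eIF3 also called INT6, fell in both lines. In PANC1 it was at 7.14 and 7.14 log2 RPKM in 7.5% GelMA, 7.10 and 7.12 in 5% GelMA, and 7.46 and 7.43 in collagen, a fall of 0.32 ± 0.04 (adjusted p = 0.000149). In BXPC3 it was at 7.16 and 7.28 in 7.5% GelMA, 7.29 and 7.18 in 5% GelMA, and 7.43 and 7.34 in collagen, a fall of 0.16 ± 0.04 (adjusted p = 0.0179). The BXPC3 call rested on collagen replicate 1: without it, the change was -0.114 with an adjusted p of 0.14. It also missed the threshold without the mean-variance trend (adjusted p = 0.0516) and in a fit of the BXPC3 libraries alone (0.0592).

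EIF3F (ENSG00000175390, chr11:7970251-8001862, plus strand) and EIF3H (ENSG00000147677, chr8:116642130-116766925, minus strand) encode the MPN-domain subunits of eIF3. EIF3F was at 7.55 and 7.60 log2 RPKM in PANC1 in 7.5% GelMA, 7.44 and 7.50 in 5% GelMA, and 7.70 and 7.67 in collagen. Its fall of 0.16 ± 0.03 (adjusted p = 0.00256) was the smallest among those called in PANC1. In BXPC3 it lay between 6.40 and 6.49 in every library, with a change of 0.03 ± 0.03 (adjusted p = 0.536). EIF3H was at 6.64 and 6.72 in PANC1 in 7.5% GelMA, 6.52 and 6.53 in 5% GelMA, and 6.96 and 6.88 in collagen, a fall of 0.32 ± 0.04 (adjusted p = 0.000164). In BXPC3 its GelMA libraries (6.67 to 6.79) overlapped its collagen libraries (6.84 and 6.73), and the change of -0.06 ± 0.04 was not called (adjusted p = 0.316).

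EIF4B (ENSG00000063046, chr12:53006158-53042209, plus strand), the partner of the eIF4A helicase, was at 8.43 and 8.46 log2 RPKM in PANC1 in 7.5% GelMA, 8.38 and 8.44 in 5% GelMA, and 8.63 and 8.74 in collagen. It fell by 0.26 ± 0.04 (adjusted p = 0.000212). In BXPC3 it stayed between 8.76 and 8.84 in all 6 libraries, with a change of -0.02 ± 0.04 (adjusted p = 0.773). PABPC1 (ENSG00000070756, chr8:100685816-100722809, minus strand), which coats the poly(A) tail, was at 9.79 and 9.87 in PANC1 in 7.5% GelMA, 9.73 and 9.75 in 5% GelMA, and 10.12 and 10.15 in collagen. Its fall of 0.35 ± 0.04, or 21.3%, had the lowest adjusted p of the members in PANC1 (3.11e-05). In BXPC3, PABPC1 was at 10.44 and 10.50 in 7.5% GelMA, 10.42 and 10.35 in 5% GelMA, and 10.41 and 10.42 in collagen, where the matrices overlapped and the change was 0.01 ± 0.04 (adjusted p = 0.801).

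In BXPC3, then, 1 member rose (EEF1B2), 1 fell (EIF3E) and 7 were not called, where 36.1% of all genes were called, 19.4% higher and 16.7% lower. The members' median change was -0.02 log2, against 0.01 for all genes. With each library centred on the mean log2 value of 26 other initiation factors, a scaling chosen after the data were seen, 6 members were called in BXPC3: EEF1B2 still rose, by 0.22, and EEF1A1, EEF1D, EIF3E, EIF3H and EIF4B fell by 0.12 to 0.26. Centring on the median level of the same factors called the same 6 genes in the same directions, with EEF1B2 at 0.15. The mean centring moved the median of all genes to -0.09 in BXPC3 and to 0.08 in PANC1, where 7 members stayed called lower and EIF3F (-0.07, adjusted p = 0.0989) did not. With the median centring all 9 were called lower in PANC1, EEF1B2 at -0.16 (adjusted p = 0.0148), where the median of all genes was -0.12. Of the 15794 genes, 6041 were called in BXPC3 with the mean centring and 6380 with the median centring, against 5703 as deposited. In PANC1 these numbers were 8840 and 8539, against 8700.

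**Figure D2:**
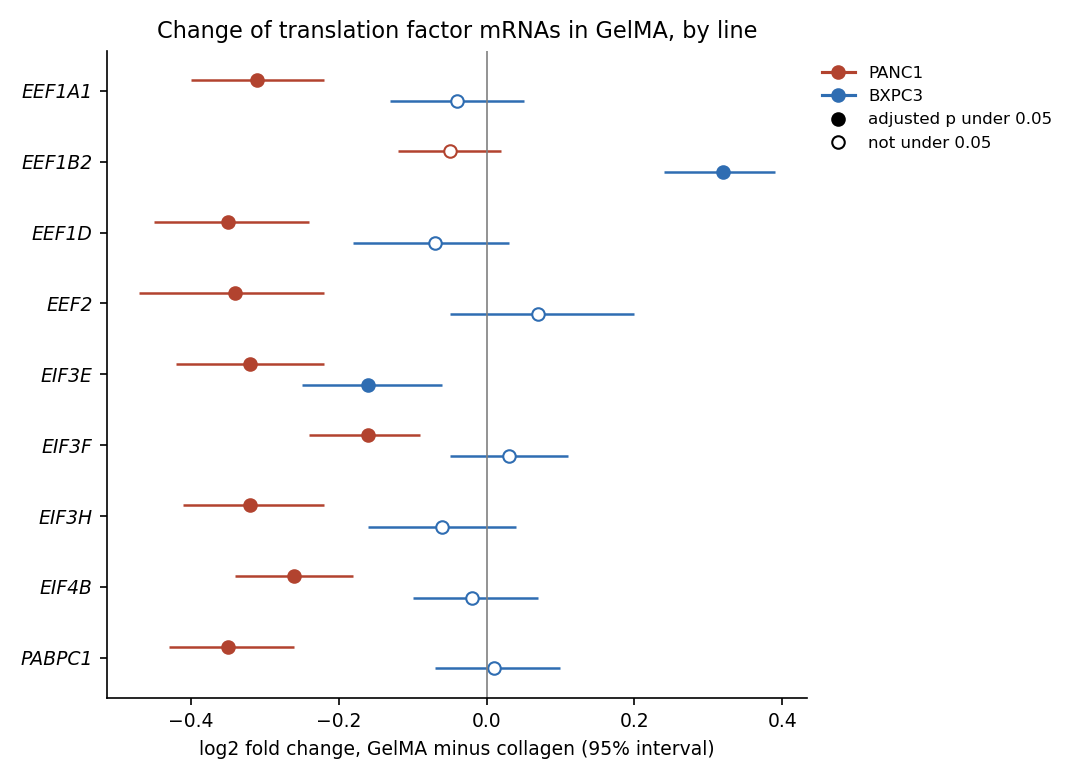
Log2 fold change in GelMA against collagen (horizontal axis) for each member in PANC1 and BXPC3, with 95% intervals from the limma fit; filled points had an adjusted p under 0.05. In PANC1 the called changes run between -0.35 and -0.16, and in BXPC3 the called ones are EEF1B2 at 0.32 and EIF3E at -0.16.

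The GelMA effect itself differed between the lines for 8 of 9 members, all lower in PANC1, in an interaction test for which 20.6% of all genes were called lower and 39.1% in either direction. The PANC1 minus BXPC3 difference was -0.42 ± 0.08 log2 for EEF2 (adjusted p = 0.00233), -0.37 ± 0.05 for EEF1B2 (0.000191) and -0.36 ± 0.05 for PABPC1 (0.000485). It was between -0.27 and -0.19 for EEF1D, EEF1A1, EIF3H, EIF4B and EIF3F. EIF3E, at -0.16 ± 0.06, was not called (adjusted p = 0.0582). EEF1B2 had the same direction of difference as the other members, with a call in BXPC3 (0.32) and none in PANC1 (-0.05), although the median centring called it lower in PANC1. Centred on the mean of the other initiation factors, 3 members remained called (EEF1B2, EEF2 and PABPC1, at -0.18, -0.23 and -0.17), EIF3E turned to 0.02, and the median of all genes moved to 0.16. The same 3 genes remained called with the median centring, where the 5 others were at -0.22 for EEF1D, -0.21 for EEF1A1, -0.21 for EIF3H, -0.19 for EIF4B and -0.14 for EIF3F (adjusted p = 0.0507 to 0.156). With the mean centring these 5 lay between -0.09 and -0.005. Of the 15794 genes, 6935 were called in this test with the mean centring and 5272 with the median centring, against 6181 as deposited.

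Each GelMA concentration was also set against the same collagen libraries, which the comparisons share. In PANC1, 8 members were called lower in 7.5% GelMA, where 53.8% of all genes were called and 26.6% were lower, and 8 in 5% GelMA, where 46.2% were called and 23.2% were lower. The log2 change against collagen was -0.21 in 7.5% GelMA and -0.49 in 5% GelMA for EEF1D, -0.24 and -0.39 for EIF3H, -0.30 and -0.39 for PABPC1, and -0.31 at both for EEF1A1. EEF1B2, at -0.00 and -0.10, was called at neither (adjusted p = 0.0523 in 5% GelMA). It was called lower in 7.5% GelMA with the median centring (-0.22, adjusted p = 0.00528), and in 5% GelMA with a filter of 8 RPKM in at least 2 libraries (adjusted p = 0.0442), with log2(RPKM + 1) (0.0497) or without collagen replicate 2 (0.0215). EIF3F in 5% GelMA lost its call with the mean centring (-0.11, adjusted p = 0.0542). The call of EIF3F in 7.5% GelMA (-0.11 ± 0.04, adjusted p = 0.0413) did not survive the removal of any single PANC1 library (adjusted p = 0.0504 to 0.2 over the 6 removals), and that of EEF1D was lost without collagen replicate 1 (0.0673) or without 7.5% replicate 1 (0.0692). In BXPC3, 2 members were called in 7.5% GelMA (29.8% of all genes, 16.1% higher and 13.7% lower) and 2 in 5% GelMA (29.9% of all genes, with the same shares higher and lower), EEF1B2 at 0.32 in both and EIF3E at -0.17 and -0.15. EEF1B2 in 7.5% GelMA missed the threshold with the median centring (0.13, adjusted p = 0.0856). EIF3E missed the threshold at both concentrations when collagen replicate 1 of BXPC3 was removed (adjusted p = 0.156 in 7.5% GelMA and 0.22 in 5% GelMA). Its call in 7.5% GelMA was also lost without replicate 1 of that group (0.21), and its call in 5% GelMA without collagen replicate 2 (0.0514) or 5% GelMA replicate 2 (0.261).

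Directly between the concentrations, EEF1D was the 1 member called in PANC1, higher in 7.5% than in 5% GelMA by 0.28 ± 0.05 log2, or 21.5% (adjusted p = 0.00558), where 18.7% of all genes were called and 9.16% were higher. It missed the threshold without 7.5% replicate 2 (0.235, adjusted p = 0.0519) and with the median centring (0.062, adjusted p = 0.497), which instead called EIF3E (-0.19) and EIF4B (-0.18) lower in 7.5% GelMA, with the median of all genes at -0.21. The changes of the other 8 members ran between 0.00 and 0.16, with EIF3H (0.16 ± 0.05, adjusted p = 0.0568) next. In BXPC3, 0 members were called by limma and 0 had an unadjusted p under 0.05. Of all 15794 genes, 13 were called (0.0823%) and 1493 had an unadjusted p under 0.05. The members' changes lay between -0.06 and 0.08. The concentration effect was not shown to differ between the lines for any member: 0 were called, where 8.97% of all genes were called. An unadjusted p under 0.05 in limma was found for 2 members and for 3889 of the 15794 genes. EEF1D came nearest, with 0.24 ± 0.08 (adjusted p = 0.0764).

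Between the lines, averaged over matrices, 4 members were higher in PANC1, 3 were lower and 2 were not called, where 91.8% of all genes were called, 50.0% higher and 41.9% lower, and the median gene was 0.12 log2 higher in PANC1. EIF3F was 1.13 ± 0.02 higher, a ratio of 2.19 (adjusted p = 3.97e-12), and EEF1B2 was 0.97 ± 0.02 higher, a ratio of 1.95 (adjusted p = 9.29e-12). All 6 PANC1 libraries lay above all 6 BXPC3 libraries for both, and the share of all genes for which this held was not counted. EEF1A1 (0.20) and EEF2 (0.12) were higher by less. With the centring on the mean of other initiation factors EEF1A1 was no longer called (0.07, adjusted p = 0.0683) and EEF2 turned to -0.01. The PANC1 minus BXPC3 value was -0.52 ± 0.02 for PABPC1, -0.30 ± 0.02 for EIF4B and -0.11 ± 0.03 for EEF1D, although EEF1D turned to 0.07 when centred on the factors' median level. EIF3E (-0.05, adjusted p = 0.145) and EIF3H (-0.04, adjusted p = 0.235) were not called, and with the centrings they were lower (-0.17 and -0.16, mean) or higher (0.13 and 0.14, median).

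On the length-corrected RPKM scale, the members in PANC1 collagen ran in the order EEF1A1 (12.42), EEF2 (10.50), PABPC1 (10.13), EEF1B2 (9.08), EIF4B (8.69), EIF3F (7.68), EIF3E (7.45), EIF3H (6.92) and EEF1D (6.85). EIF3H and EEF1D, whose libraries overlapped, could not be ordered. In BXPC3 collagen PABPC1 (10.42) stood above EEF2 (10.10), EIF4B (8.82) above EEF1B2 (7.87), and EIF3F (6.42) was last. EIF3E, EIF3F and EIF3H belong to 1 complex, and their levels lay between 6.92 and 7.68 log2 RPKM in PANC1 collagen and between 6.42 and 7.38 in BXPC3 collagen.

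Across the 12 libraries, with each line centred on its own mean, PABPC1 followed the mean of the other members most closely (Pearson's r = 0.97), and EEF1B2 least (0.13). The remaining 7 had r between 0.81 and 0.92. Over the 36 pairs of members r ran between -0.21 for EIF3E with EEF1B2 and 0.93 for EIF3H with EEF1D, with a median of 0.815. These values describe libraries that share normalization and come from 6 groups, so they carry no p. The 5 other genes most like the members' mean were DSE (0.99), a dermatan sulfate enzyme gene, SESN2 (0.987), a sestrin that restrains mTORC1 under stress, the elongation factor gene TCEA1 of RNA polymerase II (0.983), the transcription factor gene CEBPG (0.981) and WTIP (0.98). All 5 were lower in PANC1 in GelMA, at -1.66 to -0.73 log2, and at -0.03 to 0.07 in BXPC3. The choice by likeness fixed this pattern, because the members' mean itself fell in PANC1 and changed little in BXPC3. Among the 100 most similar genes, 9 encoded ribosomal proteins, against 78 of the 15784 genes compared.

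The relatives of the members did not all move with them. EEF1A2, the eEF1A paralogue of muscle and neurons, was at 6.85 and 6.81 log2 RPKM in PANC1 in 7.5% GelMA, 6.32 and 6.32 in 5% GelMA, and 6.52 and 6.44 in collagen. In BXPC3 it was at -1.81 and -1.73, -1.19 and -1.44, and -1.95 and -2.92 in the same order of matrices. All BXPC3 values were under 1 RPKM, and EEF1A2 was 8.38 ± 0.14 log2 higher in PANC1, a size that depends on the unknown offset added before the log. Its change in PANC1 in GelMA (0.10 ± 0.21) was not called, and its rise in BXPC3 (0.90 ± 0.21, adjusted p = 0.0087) was between values under 1 RPKM. PABPC4, a paralogue of PABPC1, was at -0.05 ± 0.03 in PANC1 (adjusted p = 0.19) and rose by 0.10 ± 0.03 in BXPC3 (adjusted p = 0.0356).

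Of 6 rows named after processed copies of the members, 4 fell in PANC1 and 1 in BXPC3, where 27.4% and 16.7% of all genes fell. Whether the changes of these rows differed from those of the parent genes was not tested. EEF1A1P5 was at 9.15 and 9.07 log2 RPKM in PANC1 in 7.5% GelMA, 8.88 and 9.05 in 5% GelMA, and 9.82 and 9.96 in collagen. It fell by 0.85 ± 0.07 in PANC1 (adjusted p = 5.45e-06) and by 0.51 ± 0.07 in BXPC3 (adjusted p = 0.00049), a line in which EEF1A1 was not called. EEF1A1P6 (-1.63), EEF1A1P19 (-1.39) and EIF4BP7 (-1.04) fell in PANC1 and were not called in BXPC3. EEF1A1P3 (0.10 and 0.37) and EIF3EP1 (0.05 and 0.00) were called in neither line. Such copies share sequence with the parent gene, reads could be assigned to either, and the values of both are uncertain to that extent.

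**Figure D3:**
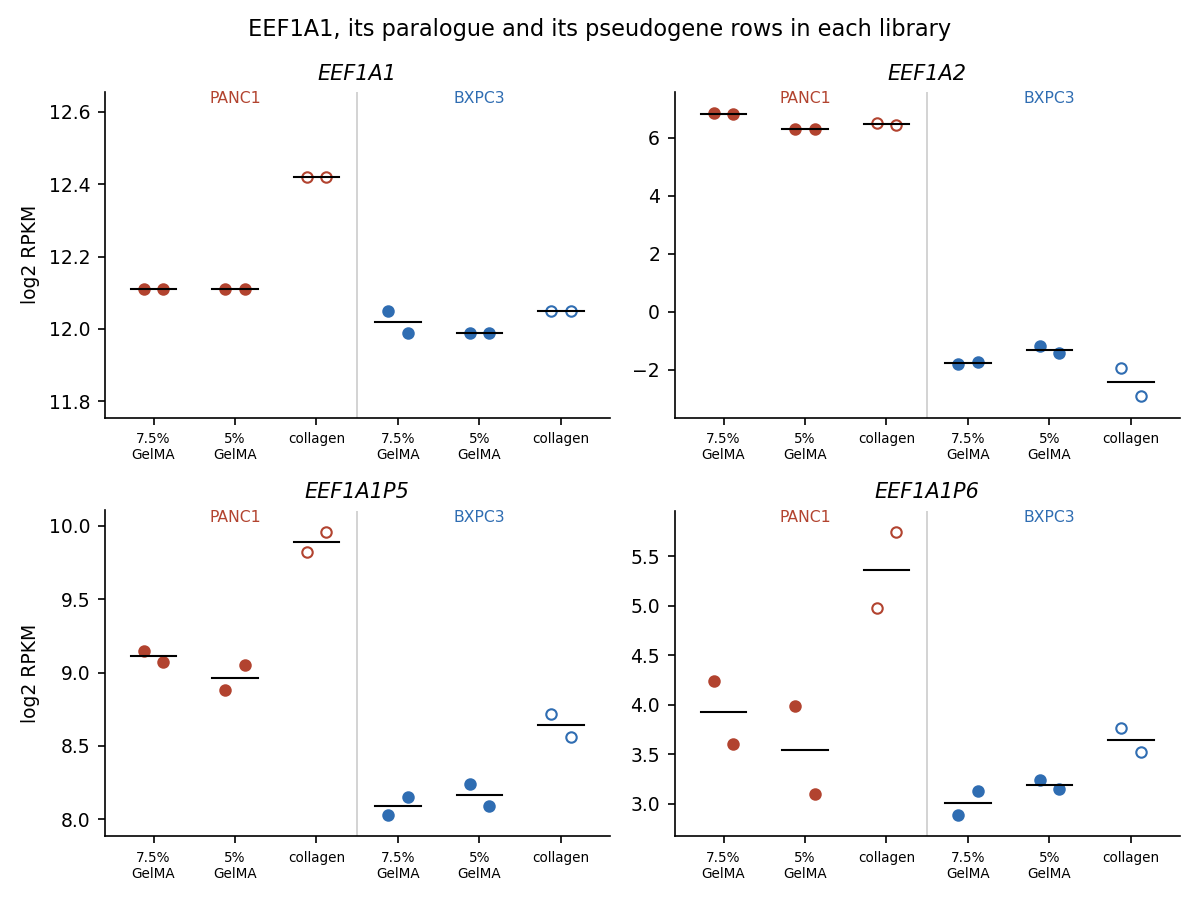
Log2 RPKM (vertical axis, each panel with its own range) of EEF1A1, its paralogue EEF1A2 and the pseudogene rows EEF1A1P5 and EEF1A1P6 in each library (points) with group means (lines). EEF1A1P5 and EEF1A1P6 are lower in GelMA than in collagen in both lines, called in both for EEF1A1P5 and in PANC1 for EEF1A1P6, while EEF1A2 separates the lines by 8.38 log2.

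The other TOP mRNAs fell in PANC1 as well. Of 7 such genes outside the ribosome's proteins and the members, 6 fell and 0 rose, with a median of -0.42 log2. NACA, a chaperone of nascent chains, fell by 0.56 ± 0.05, RACK1, a scaffold on the small subunit, by 0.54 ± 0.04, and TPT1, the translationally controlled tumour protein gene, by 0.54 ± 0.06, while HNRNPA1 was at -0.05 and was not called. In BXPC3, 2 fell (NACA at -0.37 and TPT1 at -0.31), 1 rose (NPM1, at 0.20) and RACK1 (-0.10, adjusted p = 0.0549) was not called. Of 78 ribosomal protein genes, 62 fell and 0 rose in PANC1 with a median of -0.39, and 41 fell and 5 rose in BXPC3 with a median of -0.12. Over all genes, 55.1% were called in PANC1, 27.4% lower, and 19.4% rose and 16.7% fell in BXPC3. These shares, as deposited, apply to each list below as well. The GelMA effect was lower in PANC1 than in BXPC3 for 51 ribosomal protein genes and higher for 2, where 20.6% of all genes were called lower. These counts were 25 and 9 with the mean centring, and 35 and 2 with the median centring. The effect was lower in PANC1 for 4 of the 7 other TOP mRNAs, RACK1 (-0.45), NPM1 (-0.44), NAP1L1 (-0.42, named after its value was seen) and TPT1 (-0.24), or for 3 with either centring. With the centring on the mean of other initiation factors the PANC1 counts were 5 of 7 other TOP mRNAs and 60 of 78 ribosomal protein genes lower (5 higher), and the BXPC3 counts 5 of 7 and 58 of 78 lower.

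Of the 11 remaining eIF3 genes, which are the other subunits and the gene copy EIF3CL, 5 fell and 2 rose in PANC1 (median -0.14). In BXPC3, 1 fell and 4 rose (median 0.09). With the mean centring 3 fell and 2 rose in PANC1 and 1 fell and 1 rose in BXPC3 (median -0.01). With the median centring 8 fell and 0 rose in PANC1 (median -0.25) and 2 fell and 1 rose in BXPC3 (median -0.07). The GelMA effect was lower in PANC1 than in BXPC3 for 7 of them, or for 3 with either centring. EIF3L (-0.37 ± 0.05), EIF3D (-0.31 ± 0.03), EIF3J (-0.19), EIF3M (-0.17) and EIF3B (-0.09) fell in PANC1 (EIF3D, EIF3J, EIF3M and EIF3B were named after their values were seen), while EIF3A, the largest scaffold subunit, rose by 0.19 ± 0.04 in PANC1 and by 0.38 ± 0.04 in BXPC3. EIF3L was the subunit that fell in BXPC3 (-0.13). EIF3CL, a near-identical copy of EIF3C, was at -0.31 and -0.25 in PANC1 and BXPC3 and was called in neither.

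Of 26 factors of initiation outside eIF3 and eIF4B, 10 fell and 9 rose in PANC1 (median -0.03), and 2 fell and 14 rose in BXPC3 (median 0.13). Both centrings use these factors themselves: 9 fell and 10 rose in PANC1 and 4 fell and 5 rose in BXPC3 with the mean centring, and 13 fell and 2 rose in PANC1 and 5 fell and 1 rose in BXPC3 with the median centring. EIF2S2, the beta subunit of the initiator tRNA carrier eIF2, fell by 0.80 ± 0.03 in PANC1 and rose by 0.14 ± 0.03 in BXPC3. EIF2S1, the alpha subunit, rose in both, by 0.20 and 0.33. EIF4G2, a scaffold related to eIF4G, rose by 0.44 ± 0.04 in PANC1 and by 0.12 in BXPC3, and the helicase gene EIF4A2 fell by 0.42 ± 0.03 and 0.32 ± 0.03 in the same order of lines.

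Of 11 other elongation and termination factors, 4 rose and 2 fell in PANC1 (median 0.10, or -0.01 with the median centring), and 7 rose and 0 fell in BXPC3 (median 0.24). With the mean centring 4 rose in BXPC3 (median 0.14), and with the median centring 2 rose (median 0.08). The 7 include EEF1A2, which was under 1 RPKM in every BXPC3 library. GSPT1, the release factor eRF3a, rose by 0.36 ± 0.03 in PANC1 and 0.17 in BXPC3, the ribosome rescue factor gene PELO fell by 0.29 in PANC1, and EEFSEC of selenocysteine insertion was at -0.07 in BXPC3 without a call. Of 13 modifiers of the elongation factors, 4 rose and 3 fell in PANC1 (median -0.07, or 0.02 with the mean centring) and 4 rose and 2 fell in BXPC3 (median 0.05, or -0.04). Over all genes, 55.1% were called in PANC1, 27.4% lower, and 36.1% in BXPC3, 19.4% higher and 16.7% lower. Of the genes for diphthamide, the modified histidine of eEF2, DPH3 rose by 0.57 in PANC1 and 0.27 in BXPC3, DPH2 by 0.24 and 0.42, and DPH6 fell by 0.70 in PANC1. The eEF1A methyltransferase gene EEF1AKMT3 fell by 0.42 in BXPC3, and the eEF2 kinase gene EEF2K was not called in PANC1 (-0.10 ± 0.19) or BXPC3 (-0.40 ± 0.19).

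Of 6 relatives and partners of PABPC1 that were tested, 0 rose and 2 fell in PANC1 (median -0.09), and 2 rose and 1 fell in BXPC3 (median 0.12, or -0.04 with the median centring). These counts stood beside 27.4% of all genes lower in PANC1, and 19.4% higher and 16.7% lower in BXPC3. PAIP2, which displaces PABPC1 from poly(A), fell by 0.68 ± 0.05 in PANC1 and by 0.30 ± 0.05 in BXPC3. PAIP1 was at 0.06 in PANC1, without a call, and rose by 0.23 in BXPC3, and PAIP2B (-0.13 and 0.33) was called in neither line.

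**Figure D4:**
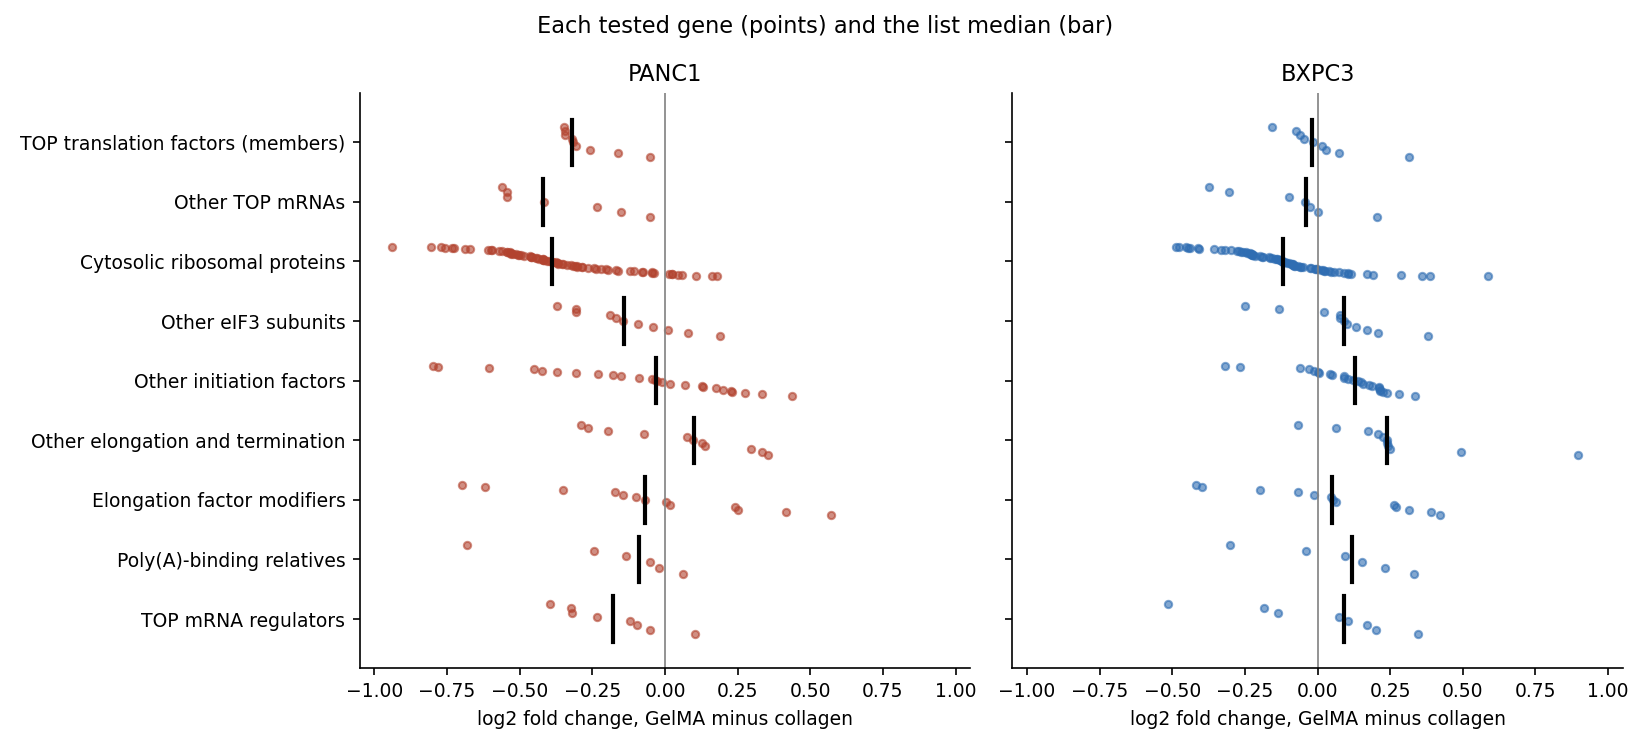
Log2 fold change in GelMA against collagen (horizontal axis) of each tested gene, as points, in 9 lists, with the list median as a bar; PANC1 is on the left and BXPC3 on the right. In PANC1 the medians of the members (-0.32), the other TOP mRNAs (-0.42) and the ribosomal proteins (-0.39) are lower than those of the other lists, which run between -0.18 and 0.10.

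Of 8 genes for proteins that bind or regulate TOP mRNAs, 6 fell and 0 rose in PANC1 (median -0.18), and 3 fell and 3 rose in BXPC3 (median 0.09, or -0.01 with the mean centring). Among all genes, 27.4% fell in PANC1, and 16.7% fell and 19.4% rose in BXPC3. In PANC1, 4 fell and 1 rose with the mean centring (median -0.09), and 6 fell and 0 rose with the median centring (median -0.29). LARP1 was at 8.35 and 8.35 log2 RPKM in PANC1 in 7.5% GelMA, 8.32 and 8.34 in 5% GelMA, and 8.39 and 8.53 in collagen, a fall of 0.12 ± 0.04 (adjusted p = 0.0286). In BXPC3 it was at 7.62 and 7.65, 7.62 and 7.70, and 7.29 and 7.31 in the same order, a rise of 0.35 ± 0.04 (adjusted p = 0.000187). Every GelMA library of BXPC3 was above both collagen libraries, as in 26.8% of all genes. The difference between the lines was -0.47 ± 0.06 (adjusted p = 0.000163). LARP4B fell by 0.39 in PANC1 and rose by 0.11 in BXPC3, TIA1 was at -0.05 in PANC1 and fell by 0.51 in BXPC3, and LARP4 (0.10 and 0.07) was called in neither.

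The mTORC1 pathway, measured at the mRNA level, had a median change of 0.07 in PANC1 (-0.04 with the median centring) and 0.07 in BXPC3 (-0.03 with the mean centring). Of 28 genes, 10 rose and 4 fell in PANC1 (14 and 4 with the mean centring, 5 and 8 with the median centring), and 9 rose and 5 fell in BXPC3 (4 and 7 with the mean centring, 4 and 8 with the median centring). As deposited, 55.1% of all genes were called in PANC1, 27.4% lower, and 19.4% rose and 16.7% fell in BXPC3. DDIT4, a stress-induced inhibitor of mTORC1, averaged 8.73, 8.76 and 11.24 log2 RPKM in PANC1 in 7.5% GelMA, 5% GelMA and collagen, and 8.03, 8.32 and 9.39 in BXPC3 in that order. It fell by 2.49 ± 0.05 in PANC1 and by 1.21 ± 0.05 in BXPC3. EIF4EBP1, a repressor of the cap-binding factor, fell by 0.78 ± 0.05 in PANC1 and was at 0.07 ± 0.05 in BXPC3 (adjusted p = 0.292). SESN3, a sestrin, rose by 0.91 ± 0.12 in PANC1, to a mean of 1.90 log2 RPKM in 7.5% GelMA, and was at -0.28 in BXPC3 without a call. DEPTOR, an inhibitor within the complex, fell by 2.00 ± 0.24 in BXPC3 and was at 0.31 in PANC1 without a call, and RRAGD, a GTPase of amino acid sensing, rose by 1.11 ± 0.14 in BXPC3 and was at -0.17 in PANC1. Protein levels and the activity of mTORC1 were not measured here.

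The changes of the members were set beside the length of the pyrimidine run printed above. In PANC1 the change was -0.05 for EEF1B2 with the run of 16 bases, -0.16 for EIF3F with 10, -0.31 for EEF1A1 and -0.34 for EEF2 with 7, and -0.26 for EIF4B with 5. The longest runs went with the smallest falls, and EIF4B, with the shortest run, lay outside that order. With 5 genes this is a description, and no test was made. The other genes with a listed start, without the members and the ribosomal proteins, were each classed by the longest run among their listed starts. With a run of at least 8 bases, 36.5% of 293 genes fell in PANC1 and 25.3% rose. With a run of 5 to 7 bases, 32.2% of 491 genes fell and 23.8% rose. With 1 to 4 bases, 27.9% of 1052 fell, and with no C at any start 27.3% of 9632 fell. In BXPC3 the shares that fell in the same order were 15.4%, 18.7%, 18.3% and 16.9%. The median changes in PANC1 were -0.07, -0.04, -0.01 and -0.001 in that order, so the shift over all such genes was small beside the members' -0.32. The grouping was chosen after results of these data were known and was not tested.

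**Figure D5:**
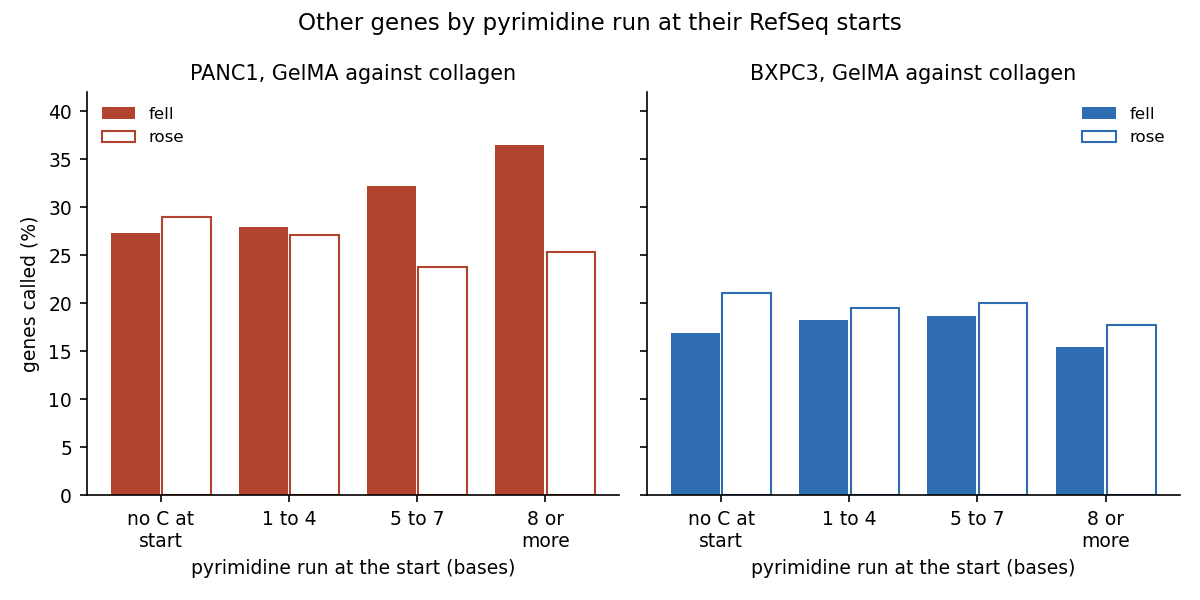
Share of genes called in GelMA against collagen (vertical axis, percent; filled bars fell, open bars rose) by the longest pyrimidine run among the listed RefSeq starts of each gene (horizontal axis, bases), without the members and the ribosomal protein genes, in PANC1 (left) and BXPC3 (right). In PANC1 the share that fell is 36.5% for runs of at least 8 bases and 27.3% for genes with no C at any listed start, and in BXPC3 these shares are 15.4% and 16.9%.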

How the data were processed

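Poly-A RNA from 12 libraries was sequenced, 2 for each of 6 groups named by the labels. Per the submitters' processing notes, reads were aligned with HISAT2 2.1.0 and counted with HTSeq on GRCh38. The authors deposited 1 table of log2 RPKM values for 16299 genes. The sorted values are equal between libraries within 0.05 for the top 13758 ranks, so they appear quantile normalized, which no label states. This fixes each library's distribution and gives each rank 1 value, so changes are relative. The depth of the libraries and the offset added before the log are unknown, so no counting error can be given, and the strand setting is not given in the sources used here. Gene names came from a gene-name table (16250 identifiers) and GENCODE (49).

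One limma 3.58.1 model (R 4.3.3) of 6 group means with a mean-variance trend was fitted to 15794 genes, those reaching 1 RPKM or more in 2 or more libraries, leaving out 505. It had 6 residual degrees of freedom. P-values are two-sided and adjusted by Benjamini-Hochberg within each of 11 comparisons. The fit was run on simulated data with 100 genes changed by 0.5 log2 and 100 by 1.0 log2. It called 67 and 84 of them, with 6 false calls. Changes as small as those of the members, or in as many genes as were called here, were not simulated. Named genes were the members, the highest and lowest gene of each list in each line, a few set regulators and relatives, member pseudogenes, and the 5 genes most correlated with the members' mean. The members and lists were chosen with earlier results of these data known. Alternatives changed the filter, the pseudocount, the scaling, the trend, the libraries fitted, a replicate block and single libraries. Sequences came from a RefSeq promoter table (GRCh38.p14), which held 11536 of the tested genes, and gene positions from GENCODE (GRCh38).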

Additional observations from a re-analysis of the deposited data

Results flagged for a closer look

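The GelMA effect differed between PANC1 and BXPC3 by the interaction term of the limma model (adjusted p under 0.05) for 8 members. Over all tested genes, 39.1% were called by this term and 20.6% were called lower. The difference, PANC1 minus BXPC3 on the log2 scale, was -0.42 for EEF2, -0.37 for EEF1B2, -0.36 for PABPC1, -0.27 for EEF1D, -0.26 for EEF1A1, -0.26 for EIF3H, -0.24 for EIF4B and -0.19 for EIF3F. For EEF1B2 the difference came with a call in BXPC3 (0.32) and none in PANC1 (-0.05), and for the other 7 with a call in PANC1 and none in BXPC3. With either centring on the other initiation factors, the difference stayed called for 3 members, EEF2, EEF1B2 and PABPC1. The fibroblast and endothelial marker sums changed with the matrix in PANC1 as well, and their part in these values was not tested.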

How the results depend on the processing

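Of 1620 alternative values of the members, 1543 were counted as unchanged, 42 lost a call, 29 gained one and 6 turned direction. A turn was counted only where 1 of the values was called, a rule set after seeing turns among near-zero uncalled values. The 1543 kept their side of the threshold but include uncalled values that changed sign. EEF2 in GelMA against collagen in BXPC3, for example, ran between -0.09 and 0.10 with no turn counted. The 2 centrings were chosen after seeing the data. The mean centring turned EEF2 between the lines (-0.006). The median centring turned EEF1D (0.067), EIF3E (0.131) and EIF3H (0.14) between the lines, and EIF3E (-0.19) and EIF4B (-0.177) between 7.5% and 5% GelMA in PANC1, where it moved the median of all genes to -0.205. Members called in GelMA against collagen in BXPC3 numbered 2, against 6 with either centring, 1 without a trend and 1 in a fit of BXPC3 alone. Between 7.5% and 5% GelMA in PANC1 the count was 1, against 2 with the 8 RPKM filter or with PANC1 alone (EEF1D and EIF3H), and 2 with the median centring, which lost EEF1D (0.062) and called EIF3E and EIF4B lower. For the difference between the lines it was 8, against 3 with either centring. In 7.5% GelMA against collagen in BXPC3 it was 2, against 5 (mean centring), 4 (median centring) and 1 (no trend, BXPC3 alone or the replicate block). In 5% GelMA against collagen in BXPC3 it was 2, against 1 with no filter, no trend, BXPC3 alone or the replicate block, and 3 with either centring, EEF1D being added. Leaving out 1 library gave 1 to 2 members in BXPC3 for GelMA and for each percentage, 0 to 1 for 7.5% against 5% GelMA in PANC1, 8 to 9 for the difference between the lines, 8 for GelMA in PANC1, 6 to 7 for 7.5% GelMA in PANC1, 8 to 9 for 5% GelMA in PANC1 and 7 to 8 between the lines. A lone library left in a group was assumed to vary like the others. Leaving out a library also lowered the calls over all genes for GelMA in PANC1 and in BXPC3. The same held for 7.5% GelMA against collagen in PANC1 and for the difference between the lines, so fewer calls were not particular to the members. EIF3E, not called for the difference between the lines, was called without BXPC3 collagen replicate 1 (adjusted p = 0.0412), 5% GelMA replicate 2 (0.0289) or 7.5% GelMA replicate 1 (0.0269). The replicate numbers of a line did not go with shared deviations (r of replicate differences -0.05 to 0.08), so the block fit is given for its counts alone. Besides the EIF3E counts above, the block ended the call of EIF3F in 7.5% GelMA against collagen in PANC1 (adjusted p = 0.069) and no other member's. The cause of these moves was not tested. Calls over all genes moved too, to 6022 with the median centring against 2956 for 7.5% against 5% GelMA in PANC1. For GelMA in BXPC3 they moved from 5703 to 6041 (mean centring) and 6380 (median centring). For the difference between the lines they moved from 6181 to 6935 and 5272 in that order. In BXPC3 they moved from 4701 to 5294 and 5669 for 7.5% GelMA, and from 4720 to 4890 and 4948 for 5% GelMA. Depth, unknown here, limits low genes most, such as EEF1A2 in BXPC3.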
